A study of Homo sapiens with 36 samples.

Results

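The 39 genes described here repair or bypass the DNA damage that cisplatin makes, or signal it. They were taken by symbol: 9 genes of the Fanconi anaemia core complex and its ubiquitin-conjugating enzyme, 5 genes of the ID2 complex and the crosslink nucleases, 7 genes of the homologous recombination side of the pathway, 9 nucleotide excision repair genes, 5 translesion synthesis genes and 4 damage signalling kinases. All 39 were listed in each of the 3 gene tables, which held 16431, 17035 and 16459 genes. The rule used no measured value, but the genes were picked with earlier results of these data known.

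RNA was sequenced from 36 libraries of human embryonal carcinoma cells, a pluripotent type of testicular germ cell tumour, in 3 experiments of 4 arms with 3 libraries each. NT2/D1-A4 and 2102EP-C1 are clones derived from the NT2/D1 and 2102EP lines that had become resistant to cisplatin, so every group, controls included, was a resistant cell, and each line was represented by 1 clone. The first experiment used NT2/D1-A4 and the second 2102EP-C1, each as an untreated control, with cisplatin (0.5 µM, 6 h), with GSK-J4 (1.0 µM, 3 days) and with cisplatin after GSK-J4. In the third, 2102EP-C1 cells carried the empty vector pLKO.1 or sh6A+6B, a pair of hairpins against KDM6A and KDM6B, and each received either PBS or the same dose of cisplatin. The cells were harvested 24 h after cisplatin. GSK-J4 inhibits KDM6A and KDM6B, the demethylases that remove the repressive H3K27me3 mark. The study asked whether interfering with these demethylases makes resistant cells sensitive to cisplatin again, and the comparisons here ask whether the RNA of the repair genes moved with either treatment.

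Cisplatin joins neighbouring bases of a DNA strand and, less often, bases of opposite strands. Nucleotide excision repair cuts out adducts within a strand, while a crosslink between strands is met at stalled forks by the Fanconi anaemia core complex, which ubiquitinates the FANCD2 and FANCI pair so that nucleases, translesion polymerases and homologous recombination can finish the repair. Embryonal carcinoma cells are known for their sensitivity to cisplatin and for a strong p53 response to it. In RNA from bulk cultures, fewer cells of a kind and less RNA per cell cannot be told apart, and RNA levels do not measure the protein or the repair itself.

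The libraries held a median of 35.3 M reads on genes (26.8 to 49.5) in the NT2/D1-A4 experiment, 37.2 M (30.3 to 53.6) in the 2102EP-C1 GSK-J4 experiment and 88.4 M (79.4 to 100.9) in the knockdown experiment. All 10 embryonal carcinoma markers were listed in each table, with a summed level of 5593 to 11363 counts per 1000000 reads (CPM) over the 36 libraries, and their sum was lower in every pretreated library than in every untreated library of the same experiment. With cisplatin alone their sum was also below every untreated library in each experiment. In NT2/D1-A4 cells it was 7223 to 7537 CPM with cisplatin, beside 7796 to 7971 untreated. The marker POU5F1 itself measured 8.93 to 9.02 log2 CPM in untreated NT2/D1-A4 cells and 9.10 to 9.15 with GSK-J4. The sum thus does not describe each marker. In the order of the experiments, the marker DNMT3B averaged 10.75, 11.72 and 11.55 log2 CPM untreated. With the pretreatment alone it averaged 9.97, 11.28 and 11.19. The marker CRIPTO averaged 3.53, 9.92 and 9.70 untreated and 4.28, 9.86 and 9.84 with the pretreatment alone. Of 7 trophoblast markers, 3 were listed for NT2/D1-A4, with a sum of 9.36 to 11.5 CPM in untreated cells and at least 17.0 in every library with GSK-J4, and 4 for 2102EP-C1, with 8.62 to 9.47 and 14.7 to 15.8. With cisplatin alone the trophoblast sum was 13.4 to 13.7 CPM in NT2/D1-A4 and 9.96 to 10.6 in 2102EP-C1 cells. Of 7 yolk sac or endoderm markers, 2 were listed in both, with 2.38 to 3.02 and 4.24 to 4.91 CPM in the first line and 0.966 to 1.42 and 1.98 to 2.29 in the second. With sh6A+6B the sum of 3 listed mesoderm markers of 5 was 17.7 to 18.5 CPM, beside 11.6 to 12.1 with pLKO.1. The part of differentiation in the changes of the repair genes was not tested. Of 5 leukocyte markers, 1 to 2 were listed. Of 7 neural markers 4 were listed, with 43.4 to 45.6 CPM in untreated NT2/D1-A4 and 21.0 to 22.6 in untreated 2102EP-C1 cells. Of 6 fibroblast or stroma markers 3 were listed, with 31.9 to 35.2 and 88.3 to 91.3 CPM in the same groups. With cisplatin alone the fibroblast or stroma sums were 41.0 to 44.2 and 110 to 113 CPM. With sh6A+6B, KDM6A and KDM6B each fell by 1.01 on the log2 scale (limma-trend, adjusted p = 2.1e-18 and 1.8e-14). After GSK-J4, KDM6B rose by 0.88 in the NT2/D1-A4 experiment and by 0.81 in 2102EP-C1 cells. Values are log2 CPM, a change is a difference of log2 CPM means with its standard error (SE), and a gene was called where its fold change was over 1.3 (0.379 on the log2 scale) and its Benjamini-Hochberg adjusted p was under 0.05 over all genes of the table. The tables were normalised separately, so nothing was tested between experiments.

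The repair genes differed widely in level before any treatment. Per kilobase of transcript, RAD23B, which helps to recognise adducts, stood at 117 CPM per kb in untreated NT2/D1-A4 cells, and MAD2L2, a subunit of the translesion polymerase zeta, stood at 111. UBE2T, the enzyme that passes ubiquitin to FANCD2, came next at 61.0. In untreated 2102EP-C1 cells MAD2L2 was highest at 147 CPM per kb, followed by RAD23B at 114, and in pLKO.1 cells the order was the same, at 136 and 92.3. UBE2T followed in both 2102EP-C1 experiments, at 76.1 and 85.2 CPM per kb. The kinase gene CHEK1, which holds the cell cycle while forks are stalled, stood at 33.1, 35.6 and 33.1 CPM per kb in the 3 reference groups.

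At the lower end of the per-length levels, the transcription-coupled repair genes ERCC8 and ERCC6 stood at 2.71 and 1.49 CPM per kb in untreated NT2/D1-A4 cells, and POLK, a translesion polymerase, at 0.967. ERCC5, the nuclease XPG, was the lowest of the 39 in each of the 3 reference groups, at 0.223, 0.263 and 0.200 CPM per kb. Of its exon bases, 91.7% are shared on the same strand with the readthrough gene BIVM-ERCC5, so its low count is uncertain. In 6 members (those over 25%, FANCA, FANCL, FAN1, DCLRE1A, XRCC3 and ERCC1) 27.3% to 47.1% of the exon bases lie opposite another gene, and since the strand setting of the count is not given in the sources used here, their values may hold reads of that gene. ATR, the kinase that responds to stalled forks, stood at 12.3 CPM per kb in untreated NT2/D1-A4 cells and at 4.33 in untreated 2102EP-C1 cells, whereas FANCD2 stood at 14.3 and 29.5. These differences between lines were not tested.

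**Figure D1:**
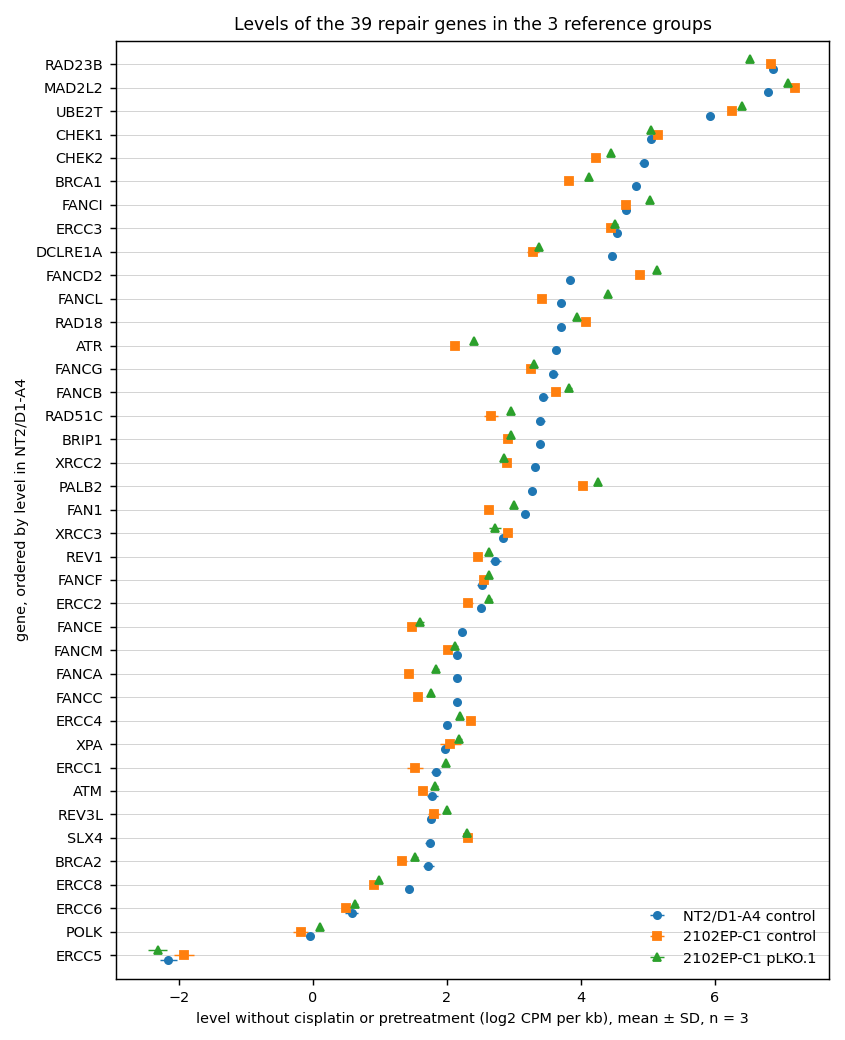
Level of each of the 39 repair genes before cisplatin or GSK-J4, as log2 CPM per kilobase of the canonical transcript, in untreated NT2/D1-A4 cells, untreated 2102EP-C1 cells and 2102EP-C1 cells with pLKO.1 (points are means and bars are the SD, n = 3). MAD2L2, RAD23B and UBE2T lie highest and ERCC5 lowest in all 3 groups.

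After cisplatin alone, no repair gene was called in any of the 3 experiments. Among all genes, 2.45% were called in the NT2/D1-A4 experiment, 1.07% in the 2102EP-C1 GSK-J4 experiment and 3% in pLKO.1 cells. With limma-trend, 9, 7 and 20 of the 39 had an unadjusted p under 0.05, and 3, 1 and 18 an adjusted p under 0.05. The weighted limma-voom fit to the recovered reads also called 0 in each experiment. The median change of the 39 genes was -0.03, 0.00 and -0.02, beside 0.00 over all genes in each experiment. In each experiment the 95% confidence interval of 38 of the 39 changes lay within a 1.3-fold difference in either direction. The exception was ERCC5, whose interval in NT2/D1-A4 cells ran from -0.42 to 0.47.

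In NT2/D1-A4 cells the 3 genes with an adjusted p under 0.05 after cisplatin were all lower. DCLRE1A, a nuclease of crosslink repair with 30.6% of its exon bases opposite another gene, changed by -0.14 (adjusted p = 0.039), RAD23B by -0.13 (adjusted p = 0.013) and CHEK1 by -0.13 (adjusted p = 0.023, limma-trend with Benjamini-Hochberg adjustment). Scaled to library size alone, 1 gene was higher and 2 were lower at that threshold. In 2102EP-C1 cells the recombination mediator BRCA2 alone passed it, with a change of 0.21 (adjusted p = 0.021). Among all genes, 5.85% were higher and 3.58% lower at that threshold in the first experiment, and 3.06% and 1.02% in the second.

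The knockdown experiment, sequenced more deeply, gave more changes at that threshold. In pLKO.1 cells 8 of the 39 genes were higher after cisplatin and 10 lower at an adjusted p under 0.05, beside 17.9% and 18.2% of all genes. Scaled to library size alone, 9 were higher and 6 lower. REV3L, the catalytic subunit of polymerase zeta, measured 5.42, 5.42 and 5.40 log2 CPM with pLKO.1 and 5.67, 5.65 and 5.65 after cisplatin. Its change was 0.24 (adjusted p = 1.5e-08), and the kinase gene ATM, which responds to double-strand breaks, changed by 0.23 (adjusted p = 4.3e-07). MAD2L2, the partner of REV3L, changed by -0.23 (adjusted p = 1.2e-07). All of these sizes were under the 1.3-fold limit.

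**Figure D2:**
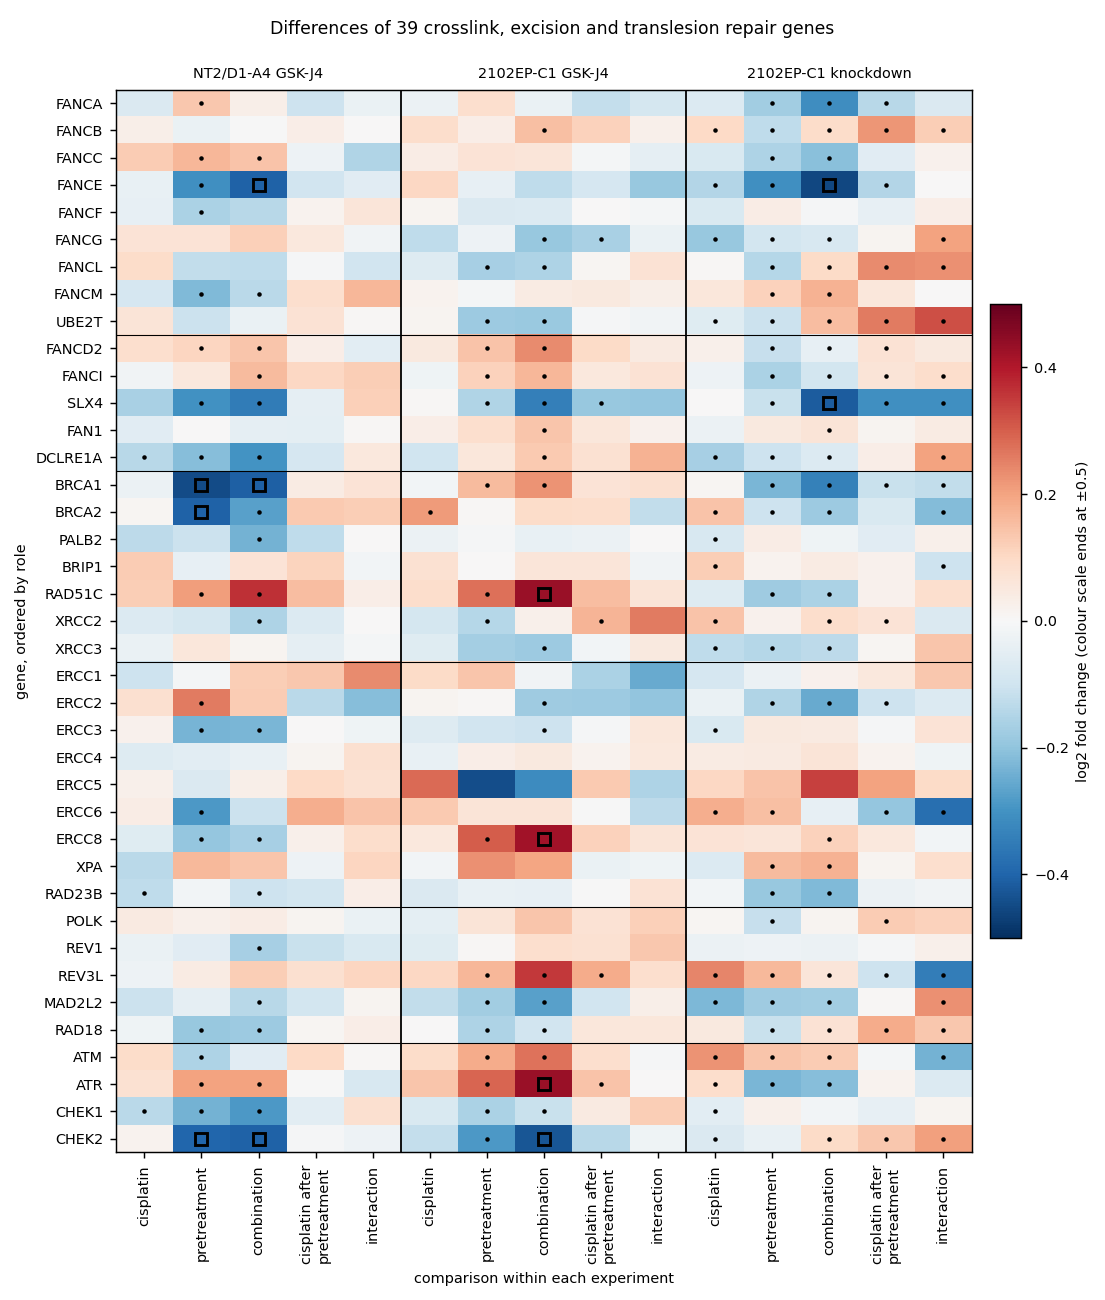
Change in log2 CPM of the 39 repair genes in the 5 comparisons of each of the 3 experiments, grouped by role (colour ends at -0.5 and 0.5, squares mark called genes and dots mark genes with an adjusted p under 0.05 that were not called). The 12 squares lie in 4 of the 15 columns, and the columns for cisplatin alone hold none.

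Cisplatin did change RNA in the same libraries. Of the p53 response list, 7 of 19 listed genes rose past both thresholds for NT2/D1-A4, 7 of 20 for 2102EP-C1 and 10 of 20 in pLKO.1 cells, and none fell. Among all genes 2.45%, 1.07% and 3% were called in either direction. The list's median change was 0.26, 0.28 and 0.36. CDKN1A, which encodes the cell cycle inhibitor p21, rose by 0.75, 0.44 and 0.63, and MDM2, which encodes the ligase that degrades p53, changed by 0.19, 0.29 and 0.40. DDB2, POLH, XPC and PCNA, repair genes outside the 39 that are known p53 targets, are set beside them here. DDB2, a sensor of helix-distorting adducts, measured 4.77, 4.79 and 4.81 log2 CPM in untreated 2102EP-C1 cells and 5.26, 5.21 and 5.20 after cisplatin, and these groups did not overlap. DDB2 rose by 0.44 there (adjusted p = 1.9e-07) and was called. Its change was 0.29 for NT2/D1-A4 (adjusted p = 0.0029) and 0.33 in pLKO.1 cells (adjusted p = 5.6e-09). POLH, the translesion polymerase eta, changed by 0.29, 0.23 and 0.33, and XPC, the damage recognition factor, by 0.14, 0.23 and 0.20 in the same order. PCNA, the sliding clamp, changed by 0.02, 0.01 and -0.02. Only the DDB2 change in 2102EP-C1 cells passed both thresholds among these 12 values.

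**Figure D3:**
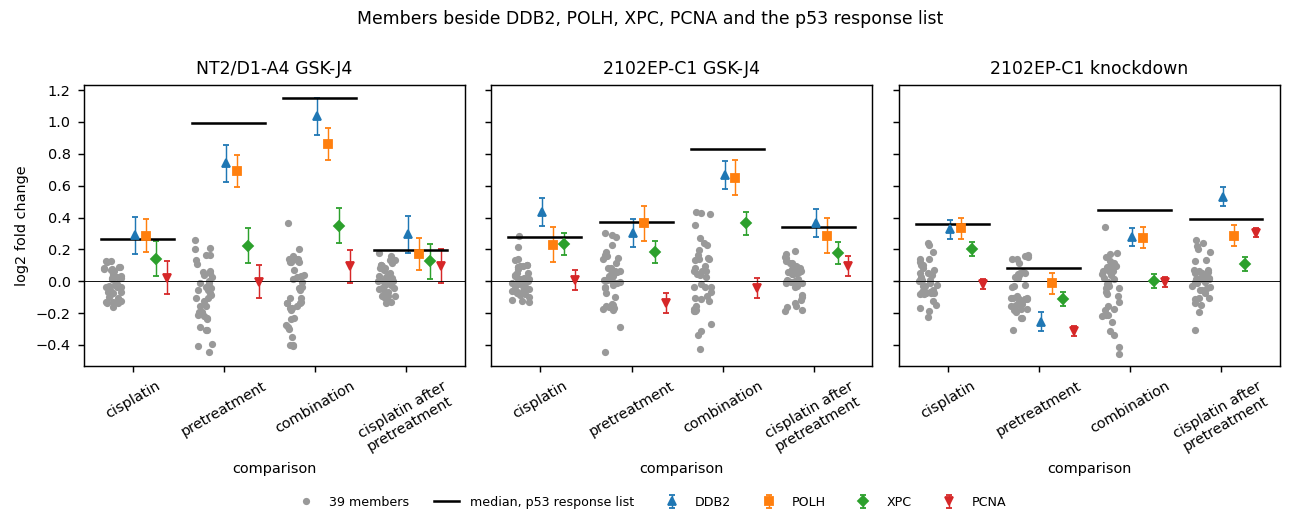
Changes of the 39 repair genes (grey points) in each comparison, with 4 other repair genes known as p53 targets, DDB2, POLH, XPC and PCNA (coloured points, 95% confidence interval), and the median of the p53 response list (black line), on the log2 scale. After cisplatin alone the grey points surround 0 while DDB2 and POLH lie at 0.23 to 0.44.

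In the NT2/D1-A4 experiment 3 of the 39 repair genes were called lower after GSK-J4 and none higher. Among all genes 6.48% were called lower and 13.8% higher in this comparison. BRCA1 and BRCA2, which act in homologous recombination, and CHEK2, the kinase downstream of ATM, were the genes called. BRCA1 measured 7.68, 7.63 and 7.64 log2 CPM in untreated cells and 7.23, 7.21 and 7.17 with GSK-J4. All 3 treated libraries were below all 3 untreated ones, with a change of -0.45 (SE 0.04, adjusted p = 3e-08). BRCA2 measured 5.39, 5.24 and 5.27 without and 4.74, 5.09 and 4.86 with GSK-J4, also without overlap, and changed by -0.41 (SE 0.08, adjusted p = 0.0002). CHEK2 measured 5.74, 5.84 and 5.88 without and 5.50, 5.44 and 5.33 with GSK-J4. Its groups did not overlap either, and its change was -0.40 (SE 0.05, adjusted p = 7.6e-06). CHEK2 has several pseudogenes (CHEK2P1 to CHEK2P5 and CHEK2P7 are annotated), and how the count divided shared reads is not given in the sources used here.

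With no limit on fold, 6 of the 39 genes were higher and 14 lower in NT2/D1-A4 cells under GSK-J4, beside 24.5% and 23.8% of all genes, and the median change of the 39 was -0.06 beside 0.01 over all genes. By role, 3 of the 4 kinases were lower (ATM at -0.16, CHEK1 at -0.24 and CHEK2) and ATR was higher by 0.20. Of the 9 core complex genes, FANCA and FANCC were higher and FANCE, FANCF and FANCM lower. Among the 9 excision repair genes ERCC2, a helicase of TFIIH, was higher by 0.26, while ERCC3, the other TFIIH helicase, ERCC6 and ERCC8 were lower, at -0.23, -0.29 and -0.19. Of the 5 translesion genes RAD18, the ligase that ubiquitinates PCNA, was lower, at -0.19. SLX4, the scaffold that holds the crosslink nucleases, changed by -0.30.

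The calls for BRCA2 and CHEK2 lay close to the fold limit. Scaled to library size alone, BRCA2 was at -0.36 and CHEK2 at -0.35, and of the 3 calls that of BRCA1 was left. BRCA2 changed by -0.36 without control replicate 1 and by -0.33 without GSK-J4 replicate 1, and CHEK2 by -0.365 without control replicate 3 and by -0.35 without GSK-J4 replicate 3, all still with an adjusted p of 0.0023 or less. Of 20 proliferation genes, 14 were lower with GSK-J4 at an adjusted p under 0.05 and 2 higher, beside 23.8% and 24.5% of all genes. MKI67, a marker of cycling cells, changed by -0.89. MCM2, a subunit of the replicative helicase, changed by -0.25, whereas the cyclin gene CCNE2 changed by 0.21. Many recombination and crosslink repair genes are themselves expressed in S phase, and the part of cell cycle state in the falls of BRCA1, BRCA2 and CHEK2 was not tested.

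When cisplatin followed GSK-J4 in NT2/D1-A4 cells, 3 of the 39 were called against untreated cells, all lower, beside 9.56% of all genes called lower and 15.9% called higher. They were BRCA1 at -0.41 (SE 0.04, adjusted p = 7.6e-08), CHEK2 at -0.40 (SE 0.05, adjusted p = 4.7e-06) and FANCE at -0.40 (SE 0.07, adjusted p = 0.00016). This comparison uses the same untreated libraries as the one with GSK-J4 alone. FANCE, a core complex subunit that binds FANCD2, measured 3.62, 3.58 and 3.54 log2 CPM in untreated cells and 3.34, 3.17 and 3.03 with both agents, with no overlap. BRCA1 measured 7.29, 7.26 and 7.18 and CHEK2 5.35, 5.38 and 5.51 with both agents. Both genes were below every untreated library.

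FANCE and BRCA1 fell under the fold limit without replicate 3 of the cells given both agents, at -0.33 and -0.37, and CHEK2 without replicate 1 of those cells or control replicate 3, at -0.37 each. Scaled to library size alone, FANCE, BRCA1 and CHEK2 were each at -0.35 and the only call was a rise of the recombination gene RAD51C. RAD51C measured 4.75, 4.69 and 4.82 log2 CPM in untreated cells and 4.98, 5.16 and 5.22 with both agents, and its change of 0.37 in the TMM-scaled values was just inside the fold limit. With no fold limit, 5 of the 39 were higher and 16 lower, beside 27.5% and 26.5% of all genes, and 10 were higher and 10 lower when scaled to library size alone.

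In 2102EP-C1 cells GSK-J4 alone gave no call among the 39, beside 10.9% of all genes called. With limma-trend 20 had an unadjusted p under 0.05 and 16 an adjusted p under 0.05, and limma-voom also called 0. The 16 genes were 8 higher and 8 lower, beside 19.2% and 16% of all genes, and the median change was 0.01 beside 0.00. ERCC8, which encodes the CSA subunit of the ligase in transcription-coupled repair, changed by 0.30, ATR by 0.29 and RAD51C, a recombination gene, by 0.28. BRCA1 was higher by 0.16. CHEK2 was lower at -0.29, UBE2T at -0.18 and MAD2L2 at -0.17.

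GSK-J4 followed by cisplatin gave 4 calls in 2102EP-C1 cells, against the same untreated libraries. RAD51C, ERCC8 and ATR were higher and CHEK2 lower, beside 12.8% of all genes called higher and 9.77% called lower. RAD51C measured 4.12, 3.91 and 4.01 log2 CPM in untreated cells and 4.52, 4.43 and 4.39 with both agents, a change of 0.43 (SE 0.06, adjusted p = 8.8e-07). ERCC8 measured 4.14, 4.16 and 4.16 in untreated cells and 4.58, 4.61 and 4.52 with both, a change of 0.42 (SE 0.05, adjusted p = 1.3e-07). ATR measured 5.10, 5.21 and 5.13 in untreated cells and 5.65, 5.52 and 5.56 with both, a change of 0.43 (SE 0.05, adjusted p = 1.3e-08). All 3 genes were higher in every library with both agents than in any untreated one.

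CHEK2 measured 5.10, 5.12 and 5.12 log2 CPM in untreated 2102EP-C1 cells and 4.52, 4.69 and 4.85 with both agents, which were all lower. Its change was -0.43 (SE 0.06, adjusted p = 1.7e-06). The cells given cisplatin alone (5.02, 4.88 and 5.08) lay between, while those given GSK-J4 alone (4.81, 4.88 and 4.79) were below every untreated library and overlapped those with both agents. With no limit on fold, 11 of the 39 were higher and 11 lower, beside 27.4% and 25.6% of all genes. CHEK2 was -0.345 without replicate 1 of the cells given both agents, and RAD51C was 0.378 without control replicate 2, each just under the fold limit.

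The changes with both agents in 2102EP-C1 cells went with transcript length and base composition. Over the 39 genes Spearman's rho of the change with the length of the canonical transcript was 0.53, and with its GC content -0.56, beside 0.16 and -0.34 over all genes (the genes share the same libraries, and these are descriptions). When each library's trend on length and GC content was removed, an alternative chosen after the data were seen, RAD51C changed by 0.29 (adjusted p = 5.3e-05), ERCC8 by 0.24 (adjusted p = 0.00011) and ATR by 0.26 (adjusted p = 4.2e-06), none past the fold limit. CHEK2 changed by -0.55 (adjusted p = 4.7e-09) and was then the only call.

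CHEK2 was the only one of the 39 genes called in the same direction in both GSK-J4 experiments. It lies at chr22:28687742-28741834 on the minus strand, and FANCE, called lower in the NT2/D1-A4 and the knockdown experiments, at chr6:35452338-35467102 on the plus strand. RAD51C lies at chr17:58692573-58735611 on the plus strand, ATR at chr3:142449235-142578733 on the minus strand and ERCC8 at chr5:60866454-60945070 on the minus strand. The 250 bases before the RefSeq start of these genes (GRCh38.p14, each on the gene's own strand) are given because these genes carry the calls that recurred between experiments or that rose. Capitals mark CCAAT or its reverse complement ATTGG.
CHEK2, chr22:28741821-28742070, minus strand: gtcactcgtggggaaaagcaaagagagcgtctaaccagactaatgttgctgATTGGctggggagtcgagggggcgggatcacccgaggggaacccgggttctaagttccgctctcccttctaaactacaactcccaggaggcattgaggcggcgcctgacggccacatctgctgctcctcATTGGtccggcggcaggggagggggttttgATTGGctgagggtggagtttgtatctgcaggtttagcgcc
ERCC8, chr5:60945071-60945320, minus strand: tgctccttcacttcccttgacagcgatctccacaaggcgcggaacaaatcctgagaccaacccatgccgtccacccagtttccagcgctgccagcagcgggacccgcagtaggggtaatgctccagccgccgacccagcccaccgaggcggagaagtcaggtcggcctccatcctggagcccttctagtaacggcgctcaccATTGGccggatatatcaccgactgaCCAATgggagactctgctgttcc
FANCE, chr6:35452088-35452337, plus strand: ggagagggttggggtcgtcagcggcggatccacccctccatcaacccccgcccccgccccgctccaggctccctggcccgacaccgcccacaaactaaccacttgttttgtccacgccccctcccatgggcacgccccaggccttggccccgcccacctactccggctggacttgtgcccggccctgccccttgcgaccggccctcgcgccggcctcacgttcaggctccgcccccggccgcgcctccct
RAD51C, chr17:58692323-58692572, plus strand: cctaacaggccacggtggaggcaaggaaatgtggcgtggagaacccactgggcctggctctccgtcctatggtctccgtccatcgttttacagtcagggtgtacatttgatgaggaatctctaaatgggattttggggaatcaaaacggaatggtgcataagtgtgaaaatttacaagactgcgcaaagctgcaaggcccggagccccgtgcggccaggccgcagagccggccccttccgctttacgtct
ATR, chr3:142578734-142578983, minus strand: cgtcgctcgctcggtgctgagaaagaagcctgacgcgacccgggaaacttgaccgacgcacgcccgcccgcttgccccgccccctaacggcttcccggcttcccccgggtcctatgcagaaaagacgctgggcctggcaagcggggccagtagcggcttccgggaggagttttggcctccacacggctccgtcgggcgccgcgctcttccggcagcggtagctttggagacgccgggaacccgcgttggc
The CHEK2 window held 3 copies of ATTGG and the ERCC8 window held ATTGG and CCAAT, while the FANCE, RAD51C and ATR windows held neither. RAD51C has another listed start, whose window had no match either.

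Of the 39 genes, 38 had a listed promoter and FANCI had none. The letters CCAAT, on either strand, were found before 16 of the 38 genes and in 32% of 35116 promoters of the same length. The E2F letters TTTCGCGC, TTTGGCGC, TTTCCCGC or TTTGCCGC were found before 3 (FANCA, FANCC and REV3L), beside 2.79% of all promoters, and the cell cycle element TTTGAA or TTCGAA before 6, beside 14.3%. The ATF4 element TGATGCAA or TGATGAAA was found before none, beside 1.7%. A gene with several listed starts counted once if any window matched, whereas the shares over all promoters count each window. The 2 rates are thus not in the same unit. A match describes the letters and not binding.

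The knockdown of KDM6A and KDM6B gave no call among the 39 without cisplatin, beside 12.1% of all genes called. With limma-trend 26 had an adjusted p under 0.05 and the same number an unadjusted p under 0.05, and limma-voom also called 0. Of these, 5 were higher and 21 lower, beside 25.6% and 27.2% of all genes, and the median change was -0.10 beside 0.00. Most of the lower genes were crosslink repair, recombination or translesion genes. They included 7 of the 9 core complex genes, 4 of the 5 ID2 complex and nuclease genes, 4 of the 7 recombination genes and 3 of the 5 translesion genes. The few others were excision repair genes or kinases. The largest fall was that of FANCE, at -0.31, followed by BRCA1 and ATR, both at -0.23. ATM and REV3L were higher, by 0.14 and 0.16. In the same libraries 17 of 20 proliferation genes were lower at an adjusted p under 0.05, and MKI67 changed by -0.19. MCM2 measured 7.11, 7.07 and 7.10 log2 CPM with pLKO.1 and 6.90, 6.92 and 6.90 with sh6A+6B. CCNE2 went the other way, at 3.05, 3.30 and 3.07 with pLKO.1 and 3.58, 3.45 and 3.58 with sh6A+6B. The part of cell cycle state was not tested.

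With sh6A+6B and cisplatin together, 2 of the 39 genes were called against pLKO.1 cells, both lower, beside 7.5% of all genes called lower and 8.51% called higher. FANCE measured 2.94, 3.02 and 2.93 log2 CPM with pLKO.1 and 2.48, 2.54 and 2.51 with knockdown and cisplatin. Its change was -0.45 (SE 0.05, adjusted p = 2.3e-08). SLX4 measured 5.22, 5.15 and 5.13 with pLKO.1 and 4.70, 4.74 and 4.81 with both, a change of -0.42 (SE 0.03, adjusted p = 1.2e-10). Neither gene overlapped between these groups. The other 2 arms of FANCE lay between, at 2.86, 2.81 and 2.78 with cisplatin and 2.63, 2.68 and 2.66 with knockdown.

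With no fold limit 12 were higher and 16 lower against pLKO.1 cells, beside 30.9% and 31.7% of all genes, and 16 were higher and 13 lower when scaled to library size alone. With the length and GC trends removed, FANCE changed by -0.35 (adjusted p = 2.6e-07) and SLX4 by -0.21 (adjusted p = 4.8e-08), both under the fold limit.

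**Figure D4:**
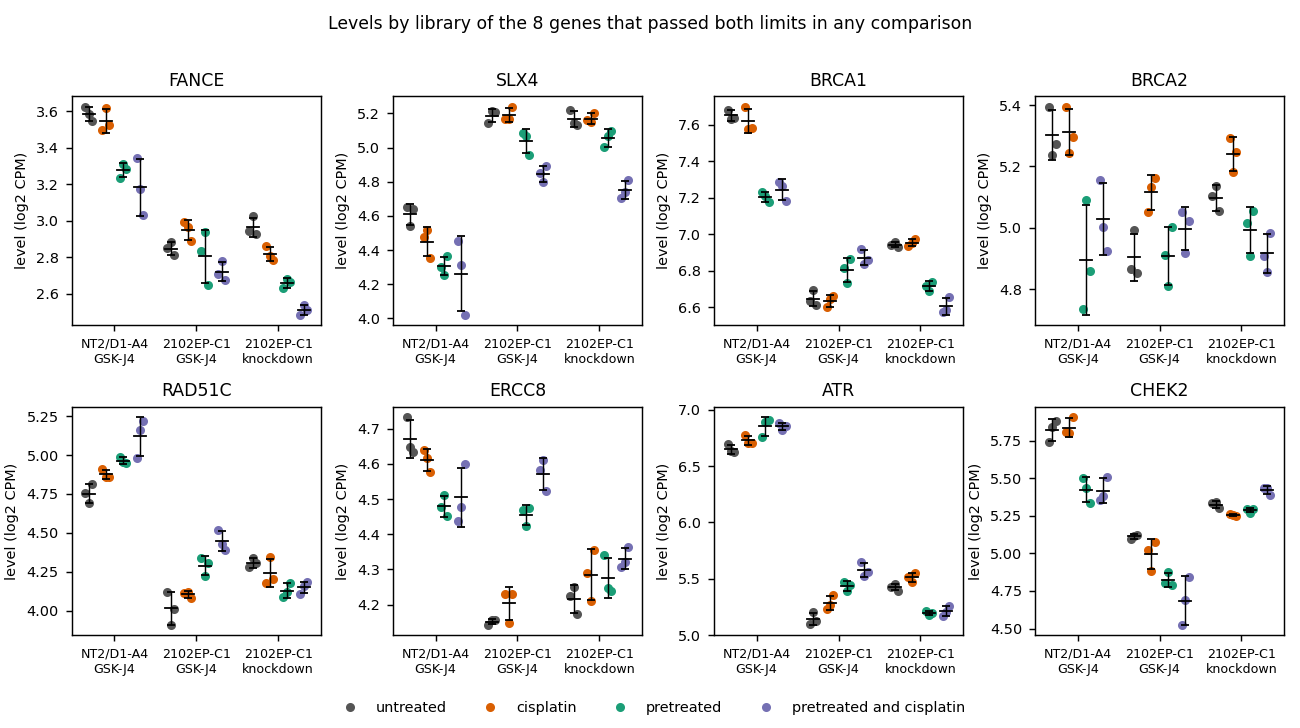
log2 CPM of the 8 repair genes called in at least 1 comparison, in all 12 groups (points are libraries, bars are means with SD, n = 3, and untreated in the knockdown experiment means pLKO.1). Under GSK-J4, BRCA1 is lower in NT2/D1-A4 and higher in 2102EP-C1 cells, and CHEK2 is lower in both.

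The 2 lines given GSK-J4 did not show one set of values. BRCA1 changed by -0.45 in the first and by 0.16 in the second, NT2/D1-A4 and 2102EP-C1, and measured 6.64, 6.69 and 6.61 log2 CPM without and 6.81, 6.73 and 6.86 with GSK-J4 in the latter. ERCC8 changed by -0.19 and 0.30 and ERCC6 by -0.29 and 0.07. These 3 of the 39 were picked because their treated and untreated libraries did not overlap in either line. The share of such genes over all genes was not counted. The difference between the lines was not tested. Under GSK-J4 alone, the changes of the 39 genes in the second line had a Spearman's rho of 0.47 with transcript length. Over all genes it was 0.17. After removal of the length and GC trends, the BRCA1 rise no longer had an adjusted p under 0.05 with its sign (limma-trend). The BRCA1 fall in the first line kept both, as did the 2 ERCC8 changes. In the knockdown experiment BRCA1 measured 6.94, 6.96 and 6.93 with pLKO.1 and 6.72, 6.69 and 6.74 with sh6A+6B. ATR was higher with GSK-J4 in both lines, by 0.20 and 0.29, and lower with sh6A+6B, at -0.23.

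Cisplatin given after the pretreatment also left the 39 genes under the thresholds. None was called in the NT2/D1-A4 experiment (0.377% of all genes), the 2102EP-C1 GSK-J4 experiment (2.22%) or the knockdown experiment (3.52%), and limma-voom called 0 in each. The unadjusted p was under 0.05 for 10, 13 and 17 genes and the adjusted p for 0, 5 and 16, beside 1.26% and 15.7% of all genes in the first and second experiments. Of the 16 in sh6A+6B cells, 9 were higher and 7 lower, beside 22.1% and 22.7% of all genes. UBE2T rose by 0.26, FANCL, the ubiquitin ligase subunit of the core complex (27.3% of its exon bases lie opposite VRK2), by 0.24 and FANCB by 0.22 at an adjusted p under 0.05, whereas SLX4 fell by 0.30 and ERCC6 by 0.19.

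The interaction, the cisplatin effect in pretreated cells minus that in cells without pretreatment, was called for none of the 39 in any experiment (0.0426%, 0.857% and 3.77% of all genes). In the GSK-J4 experiments limma-trend gave 4 and 7 of the 39 an unadjusted p under 0.05 and none an adjusted p under 0.05 (0.0426% and 2.38% of all genes), and limma-voom called 0. In the knockdown experiment 18 had an unadjusted and 16 an adjusted p under 0.05, 9 of them positive and 7 negative, beside 17.2% and 18% of all genes. ERCC6, at -0.38 (95% confidence interval -0.49 to -0.26, adjusted p = 9.1e-06), was just inside the fold limit, and limma-voom called it alone. It was also past the limit when scaled to library size alone and in 5 of the 12 fits that left out 1 library.

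ERCC6, which encodes CSB, the translocase that couples repair to transcription, measured 3.80, 3.84 and 3.76 log2 CPM with pLKO.1 and 4.04, 3.97 and 3.94 after cisplatin. With sh6A+6B it measured 3.97, 3.98 and 3.91 and after cisplatin 3.74, 3.72 and 3.82. Cisplatin thus went with higher values in the first pair of groups and lower values in the second, without overlap in either pair. REV3L measured 5.42, 5.42 and 5.40, and 5.67, 5.65 and 5.65 after cisplatin, with pLKO.1. With sh6A+6B it measured 5.58, 5.57 and 5.59, and 5.46, 5.48 and 5.49 after cisplatin, and its interaction was -0.35 (SE 0.03, adjusted p = 8.7e-09). UBE2T went the other way.

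UBE2T measured 6.21, 6.25 and 6.22 log2 CPM with pLKO.1 and 6.14, 6.18 and 6.17 after cisplatin. With sh6A+6B it measured 6.14, 6.10 and 6.11, and 6.38, 6.41 and 6.35 after cisplatin. Its interaction was 0.32 (SE 0.03, adjusted p = 2.5e-08). MAD2L2 had an interaction of 0.23 and CHEK2 one of 0.20, whereas SLX4 had -0.31, ATM -0.24 and BRCA2 -0.22. By role, the 4 core complex genes past an adjusted p of 0.05 (FANCB, FANCG, FANCL and UBE2T) were all positive and the 3 recombination genes (BRCA1, BRCA2 and BRIP1) all negative.

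The sign of the interaction in the knockdown experiment went with transcript length, among all genes as among these. Spearman's rho with the length of the canonical transcript was -0.72 over the 39 and -0.52 over 15222 genes. Cisplatin alone in pLKO.1 cells gave 0.71 and 0.38. The median interaction was -0.16 over the 8 members of at least 8 kb, beside -0.22 over all 1335 such genes, and 0.23 over the 5 members under 2 kb, beside 0.13 over all 4040. UBE2T has a canonical transcript of 878 bases and MAD2L2 one of 1053, whereas ERCC6 has 9001, REV3L 10706, BRCA2 11954 and ATM 12915. POLK, the longest member at 14623 bases, had an interaction of 0.12 (adjusted p = 0.14) and ERCC8, at 9414 bases, one of -0.01 (adjusted p = 0.88).

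In the knockdown experiment a length difference was present in every library with cisplatin, sh6A+6B or both, but its sign was not the same in all. Relative to the pLKO.1 mean, the median of genes of at least 8 kb minus that of genes under 2 kb was 0.17 to 0.20 log2 in the 3 pLKO.1 libraries with cisplatin, 0.04 to 0.09 with sh6A+6B and -0.12 to -0.07 with both. These 4 groups did not overlap, since the pLKO.1 libraries lay between -0.01 and 0.01. With each library's length and GC trend removed, 13 of the 39 interactions were positive and 3 negative at an adjusted p under 0.05, and 10 of the 16 genes before removal were among them with the same sign. REV3L was then at -0.17 (adjusted p = 6.5e-05), ERCC6 at -0.22 (adjusted p = 0.001) and UBE2T at 0.13 (adjusted p = 0.00034). ATM was at -0.02 (adjusted p = 0.74), BRCA2 at -0.02 (adjusted p = 0.84) and BRCA1 at -0.02 (adjusted p = 0.62). The cause of the length trend was not tested.

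**Figure D5:**
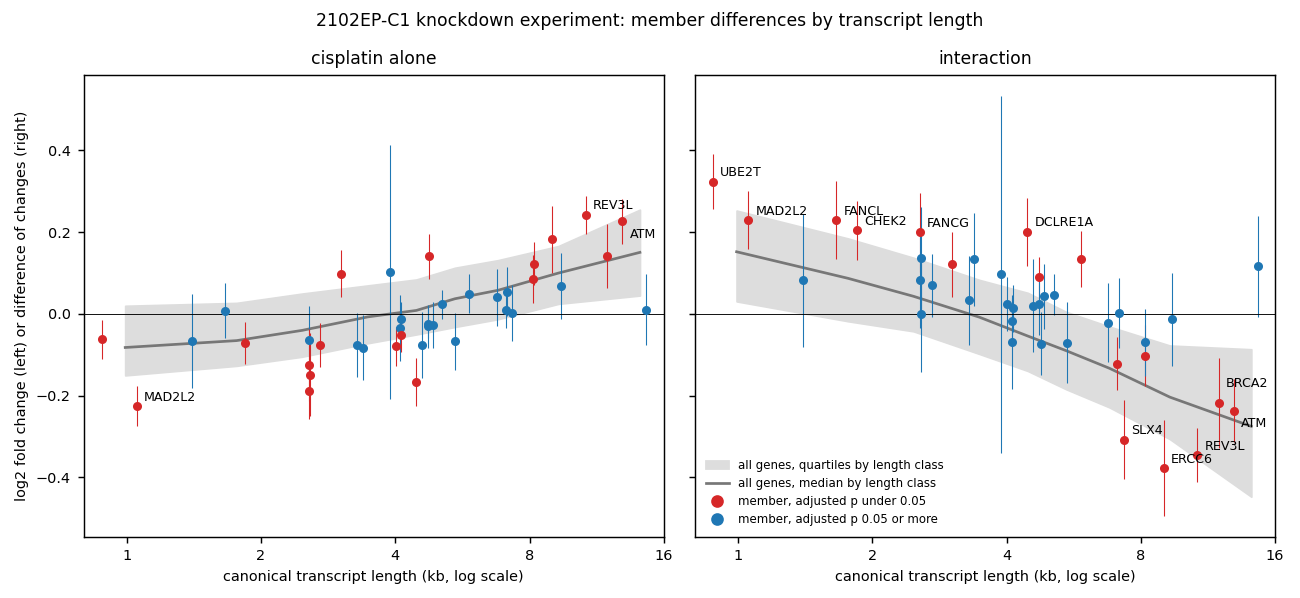
Change in log2 CPM of the 39 repair genes after cisplatin alone (left) and interaction of knockdown and cisplatin (right) in the knockdown experiment, against the length of the canonical transcript in bases on a log axis. Points are genes, and the grey band and line are the quartiles and median of all genes by length. The 8 members of at least 8 kb lie above 0 on the left, and 7 of them, all but POLK, lie below 0 on the right.

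Around the 39 genes stood 110 other repair genes in 7 groups, of which 109 were listed in each table. After cisplatin alone their only call in the 3 experiments was DDB2 in 2102EP-C1 cells, beside 2.45%, 1.07% and 3% of all genes called. At an adjusted p under 0.05 with limma-trend 2 were higher and 6 lower in the NT2/D1-A4 experiment, 4 higher in the 2102EP-C1 GSK-J4 experiment, and 13 higher and 27 lower in pLKO.1 cells. Among all genes 5.85%, 3.06% and 17.9% were higher and 3.58%, 1.02% and 18.2% lower at that threshold, in the same order. With GSK-J4 alone 4 were called higher and 7 lower in the first line, and 1 higher and 5 lower in the second. Among all genes 13.8% were called higher and 6.48% lower in the first, and 10.9% in either direction in the second. With sh6A+6B alone, 2 were called, beside 12.1% of all genes. Both were lower, the mismatch repair gene MSH6 at -0.42 and UHRF1, which senses crosslinks and maintains DNA methylation, at -0.43.

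In NT2/D1-A4 cells under GSK-J4 the 4 genes called higher were DDB2 at 0.74, POLH at 0.69, the core complex partner CENPS at 0.42 and the recombination gene RAD51B at 0.40. The 4 largest falls were those of UHRF1 at -0.86, MSH6 at -0.47, the end joining kinase gene PRKDC at -0.44 and the helicase gene BLM at -0.43. In 2102EP-C1 cells RAD51D, another recombination gene, was called higher at 0.39, and EME2, H2AX, UHRF1, CENPX and RBX1 were called lower at -0.68, -0.57, -0.48, -0.41 and -0.39. Against untreated NT2/D1-A4 cells, GSK-J4 with cisplatin gave 5 higher (DDB2 at 1.04, POLH at 0.86, RAD51B at 0.64, CENPS at 0.47 and the end resection gene RBBP8 at 0.40) and 11 lower, led by UHRF1 at -0.88, the nuclease partner gene EME2 at -0.76, MSH6 at -0.54 and MDC1, an adaptor at breaks, at -0.50. Against untreated 2102EP-C1 cells it gave 7 higher, led by DDB2 at 0.67, POLH at 0.65, RAD51D at 0.49 and RBBP8 at 0.48, and 10 lower, led by EME2 at -0.86, UHRF1 at -0.77, CENPX at -0.65 and H2AX at -0.63. Knockdown with cisplatin gave 2 higher, the TFIIH subunit gene GTF2H2 at 0.46 and the end joining ligase gene LIG4 at 0.40, and 4 lower, UHRF1 at -0.72, the polymerase gene POLE at -0.43, MSH6 at -0.42 and PRKDC at -0.42. Among all genes 15.9%, 12.8% and 8.51% were called higher and 9.56%, 9.77% and 7.5% lower with both treatments, in the same order of experiments.

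DDB2 measured 4.05 to 4.23 log2 CPM in the 3 untreated NT2/D1-A4 libraries and 4.87, 4.87 and 4.96 with GSK-J4. With both agents it measured 5.17, 5.17 and 5.25, all above the other 3 groups. In the knockdown experiment it measured 5.20, 5.13 and 5.23 with pLKO.1 and 4.91, 4.91 and 4.97 with sh6A+6B, and its change of -0.25 had the opposite sign. After cisplatin in sh6A+6B cells DDB2 rose by 0.53 (adjusted p = 9.6e-13) to 5.49, 5.43 and 5.47, near the 5.50, 5.51 and 5.52 of pLKO.1 cells with cisplatin. Its interaction was 0.20 (adjusted p = 0.00026). Of the p53 response list, 16 genes were called higher under GSK-J4 in the first line, 10 in the second and 2 with sh6A+6B, and the integrated stress response list, which answers amino acid shortage and other stresses, had 12, 12 and 2 of 13. Among all genes 13.8% were called higher in the first of these comparisons, and 10.9% and 12.1% in either direction in the others.

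Over all 15 comparisons, 8 of the 39 repair genes were called at least once, in 4 comparisons and in 12 of 585 pairs of gene and comparison, and 31 were called in none. Over the same 15 comparisons 8.3% of the pairs were called among all genes. ERCC1, ERCC4 and ERCC5, which make up the nucleases that cut on either side of an adduct, had an adjusted p under 0.05 in no comparison. ERCC1 is the member with 47.1% of its exon bases opposite another gene, POLR1G.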

How the data were processed

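RNA-seq values were analysed for the 36 libraries of the 3 experiments, grouped by their titles. Per the methods, the authors prepared TruSeq Stranded mRNA libraries, trimmed reads with Trimmomatic, aligned them with STAR to GRCh38.p14, counted them with featureCounts, removed genes that did not exceed 0.5 CPM in 2 or more samples, scaled by TMM and tested with limma. Tool versions and the strand setting are not given in the sources used here. The values deposited by the authors are log2 CPM. The values fit a formula that adds 3 reads as the prior count and divides by library sizes scaled with TMM. Under this formula 100% of the values under 50 reads (45133, 44354 and 12991 values) came out within 0.05 of a whole read, and the depth per library comes from these recovered reads.

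For each experiment, limma-trend (limma 3.58.1, R 4.3.3) was fitted to the log2 values of its 12 libraries with 1 mean per group and no block. The 5 comparisons were two-sided contrasts, adjusted by the Benjamini-Hochberg method over all genes of the table. A gene was called at a fold over 1.3 and an adjusted p under 0.05. Replicates are biological triplicates per the labels. Their numbers were not treated as pairs, and whether they mark libraries handled together is not known here. Transcript length and GC content are those of the Ensembl canonical transcript in GENCODE 44, and promoters are RefSeq windows of 250 bases before the start (GRCh38.p14). The code was tested on simulated data. All 39 genes are accounted for, with per-library values for those called in most comparisons. Of the other repair genes, every called gene was named where 6 or fewer were called in a direction and the 4 with the largest change otherwise, and DDB2, XPC, POLH and PCNA always. Other genes and values named, such as those of UBE2T, REV3L and ERCC6 in the knockdown experiment, were chosen after their values were seen. The members and gene lists were chosen with earlier results of these data known, and the other repair genes were taken from pathway knowledge. Alternatives were the genes tested, the libraries fitted, a replicate block, limma-voom, scaling to library size, a prior count of 0.5, no fold limit, leaving out each library, and, added after the data were seen, removal of the length and GC trend (splines with 5 degrees of freedom).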

Additional observations from a re-analysis of the deposited data

Results flagged for a closer look

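In the knockdown experiment the effect of cisplatin differed between sh6A+6B and pLKO.1 cells for 16 of the 39 genes (limma-trend interaction, adjusted p under 0.05). The log2 differences were positive for FANCB (0.12), FANCG (0.20), FANCL (0.23), UBE2T (0.32), FANCI (0.09), DCLRE1A (0.20), MAD2L2 (0.23), RAD18 (0.13) and CHEK2 (0.20). DCLRE1A and FANCL overlap genes on the opposite strand by 30.6% and 27.3% of their exon bases. The differences were negative for SLX4 (-0.31), BRCA1 (-0.12), BRCA2 (-0.22), BRIP1 (-0.10), ERCC6 (-0.38), REV3L (-0.35) and ATM (-0.24). None of the 16 passed the 1.3-fold limit, and 10 of them kept an adjusted p under 0.05 and their sign with the length and GC trends removed. Among the other repair genes, the interaction of the TFIIH subunit gene GTF2H2 was 0.44, that of the transcription-coupled repair gene UVSSA -0.41 and that of PRKDC -0.54. All were past both thresholds, beside 3.77% of all genes called. The interaction went with transcript length over all genes, and values of these genes with that trend removed are not given here.

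Some genes differed in opposite directions between experiments, picked because treated and untreated libraries lay apart in each. For cisplatin alone, against pLKO.1 cells, these were 1 of the 39 in the NT2/D1-A4 and 2 in the 2102EP-C1 GSK-J4 experiment. Between the 2 lines there were 3 with GSK-J4 and 4 with both agents, and the share over all genes was not counted. These differences between experiments were not tested. After cisplatin alone, FANCE changed by 0.10 in the 2102EP-C1 GSK-J4 experiment and by -0.15 in pLKO.1 cells, and XRCC2, a recombination gene, by -0.07 and -0.09 in the GSK-J4 experiments and by 0.14 in pLKO.1 cells. With GSK-J4, BRCA1 changed by -0.45 in NT2/D1-A4 and 0.16 in 2102EP-C1 cells, ERCC6 by -0.29 and 0.07, and ERCC8 by -0.19 and 0.30. With GSK-J4 and cisplatin, DCLRE1A changed by -0.30 and 0.13, BRCA1 by -0.41 and 0.22, ERCC8 by -0.17 and 0.42, and REV1, a translesion scaffold, by -0.17 and 0.08. The REV1 change in 2102EP-C1 cells had an adjusted p of 0.05 or more (limma-trend). So did the changes after cisplatin alone of FANCE in the 2102EP-C1 GSK-J4 experiment and of XRCC2 in both GSK-J4 experiments. Libraries lying apart was the only rule, and an adjusted p under 0.05 was not required. With the length and GC trends removed, neither BRCA1 rise in 2102EP-C1 cells kept an adjusted p under 0.05 and its sign.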

How the results depend on the processing

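The count of the 39 genes called depended most on the fold limit. With no fold limit it was 3, 20 and 21 for cisplatin, GSK-J4 and both in the NT2/D1-A4 experiment, 1, 16 and 22 in the 2102EP-C1 GSK-J4 experiment with 5 for cisplatin after GSK-J4, and 18, 26 and 28 in the knockdown experiment with 16 for cisplatin after knockdown and 16 for the interaction. Scaled to library size alone, 1 gene was called in NT2/D1-A4 cells with GSK-J4 (BRCA1), 1 with both agents (RAD51C, a rise) and 1 for the knockdown interaction (ERCC6), which limma-voom also called (1). With the length and GC trends removed the count was 1 for GSK-J4 (ERCC5, a fall at the lowest depth) and 1 for both agents in 2102EP-C1 cells, 0 for knockdown with cisplatin, and 4 in place of 3 for both agents in NT2/D1-A4 cells (BRCA1, CHEK2, FANCE and SLX4). Leaving out 1 library at a time gave 2 to 3 and 1 to 4 calls for GSK-J4 and for both agents in the first experiment, 3 to 4 for both agents in the second, 2 to 3 for knockdown with cisplatin, 0 to 1 for the knockdown interaction and 0 elsewhere. The cause of these shifts was not tested.

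The 20 results for named genes had 380 alternatives, of which 360 kept direction and threshold and 0 reversed. The other 20 fell under the fold limit, with an adjusted p of at most 0.0023. All 20 were of called members, and none was of DDB2 or POLH, which are not members. Of the member calls, only BRCA1 with GSK-J4 alone in NT2/D1-A4 cells kept both thresholds in all 19 alternatives. The 380 include fits without a library of an arm outside the comparison, which cannot move its fold change. The pooled total is thus not a measure of how stable the member calls were. The replicate block moved no count, with 3 and 3 calls in the first experiment, 4 in the second and 2 in the knockdown experiment. The deviations of same-numbered libraries correlated at -0.0923 to 0.0767, -0.0579 to 0.0397 and -0.0433 to 0.117. Those of differently numbered libraries correlated at -0.0756 to 0.115, -0.0582 to 0.0512 and -0.122 to 0.0645. A correlation over all genes cannot show whether libraries were handled as pairs. At these depths ERCC5, with few reads, could not be resolved to a 1.3-fold difference.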
